A study of Mus musculus with 12 samples.

Results

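The C-type lectin receptor genes are described here across islet macrophages, islet endothelial cells and whole islets of VEGF-A-inducible mice. The members are the protein-coding genes whose symbol starts with Clec (Clec10a left out), Cd209 or Klr, and they number 66 of the 22711 genes with an entry in the normalized expression table. By prefix they are 31 Clec, 7 Cd209 and 28 Klr genes, and 51 of the 66 lie on chromosome 6. The choice was made on symbols alone, so a few members are no lectins. Clec16a is a regulator of autophagy, Klraq1 encodes a protein named for a KLRAQ motif, and Klrb1-ps1 carries a pseudogene's symbol although the table lists it as protein-coding.

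Every mouse carried RIP-rtTA and TetO-VEGF-A, so that the insulin promoter drives the transactivator in beta cells and doxycycline (Dox) switches on VEGF-A there. The 4 groups of 3 libraries each were CD11b+ macrophages of islets after 1 week of Dox (Dox macrophages), CD31+ endothelial cells of islets after 1 week of Dox (Dox endothelial cells), whole islets after 1 week of Dox (Dox islets) and whole islets of untreated mice (No Dox islets). The sorted fractions came only from Dox-treated mice, so that no macrophage or endothelial library without Dox and no library without the transgenes entered these comparisons. CD11b is carried by dendritic cells, neutrophils and natural killer (NK) cells besides macrophages. The sources used here give neither the age of the mice nor whether the libraries of 1 group are separate animals, and p-values therefore reflect only how libraries vary, which may be technical.

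C-type lectin receptors are membrane proteins with a lectin-like domain, of which only some bind sugars. On macrophages and dendritic cells they recognise fungal, bacterial and dead-cell ligands: activating members signal through Syk, either by their own tyrosine motif or through the adaptor Fcer1g, while members with an inhibitory motif recruit the phosphatases Ptpn6 and Ptpn11. The Klr genes encode the lectin-like receptors of NK cells, including the Ly49 family (Klra), and the Clec2 genes encode ligands for some of them. Clec14a is known from endothelium, and Clec1a from endothelium and myeloid cells.

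All levels are given as the signal that the authors deposited, which is normalized and linear, has a floor of 1 in every library and is not corrected for gene length. The summed signal per library was 17635776 to 25226447, and no counting interval is attached to a value because the read numbers are unknown. Summed over 10 macrophage markers the signal was 325260 to 345435 in Dox macrophages and 2850 to 3999 in Dox endothelial cells. Over 10 endothelial markers it was 1639 to 2230 in Dox macrophages and 246224 to 275768 in Dox endothelial cells. No marker of these lists was at the floor in all 3 libraries of either fraction. Dox macrophages also had 13506 to 16932 summed over 8 dendritic cell markers against 6872 to 7585 in Dox endothelial cells. A single gene was the largest part of each sum, Itgax in macrophages (11323, 9733 and 6452) and Zbtb46 in endothelial cells (7095, 7496 and 6779). Over 11 neutrophil markers the sums were 4007 to 4731 in Dox macrophages and 144 to 250 in Dox endothelial cells. Csf3r gave 2923, 2155 and 3001 of the macrophage sums, while S100a9 was at 173 to 582 and Ly6g at 1.64 or less there. In all endothelial libraries Siglech of the dendritic list and S100a9, Mpo, Cxcr2 and Retnlg of the neutrophil list were at the floor. Several libraries stood apart. Deviations from the group mean rose with GC content in Dox islets replicate 1 (Spearman's rho over 15082 genes 0.57) and No Dox islets replicate 2 (0.64). In the other islet libraries rho was -0.44 to -0.33. The 3 deviations of a gene within a group sum to 0, so these negative values are no separate observation. The 8 NK cell markers summed to 1616 in macrophage replicate 3, against 212 and 313 in the other two macrophage libraries. The 7 acinar markers summed to 393639 in macrophage replicate 2 and 113899 in endothelial replicate 2, against 26108 or less in the other libraries of both fractions.

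The receptor genes took 0.443 to 0.492% of all signal in Dox macrophages, 0.176 to 0.182% in Dox endothelial cells, 0.102 to 0.125% in Dox islets and 0.042 to 0.0668% in No Dox islets. Of the 66 members, 5 sat at the floor of 1 in all 12 libraries: Clec4f, the receptor of liver Kupffer cells, and Clec2h, Klra10, Clec18a and Clec3a. Altogether 29 members exceeded a signal of 100 in no library, these 5 included. Per kilobase of exon, the highest mean levels in Dox macrophages were those of Clec7a (8468), Clec4n (6485), Klra2 (6425), Clec4d (4854), Cd209a (4229) and Clec4a3 (4104). In Dox endothelial cells they were those of Clec14a (4135), Clec1a (2555), Clec2d (1720) and Clec9a (878). In both kinds of whole islets Clec14a, Clec2d and Clec1a were the 3 members with the most signal per kilobase, at 1784, 1452 and 1214 in Dox islets and 516, 549 and 482 in No Dox islets.

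**Figure D1:**
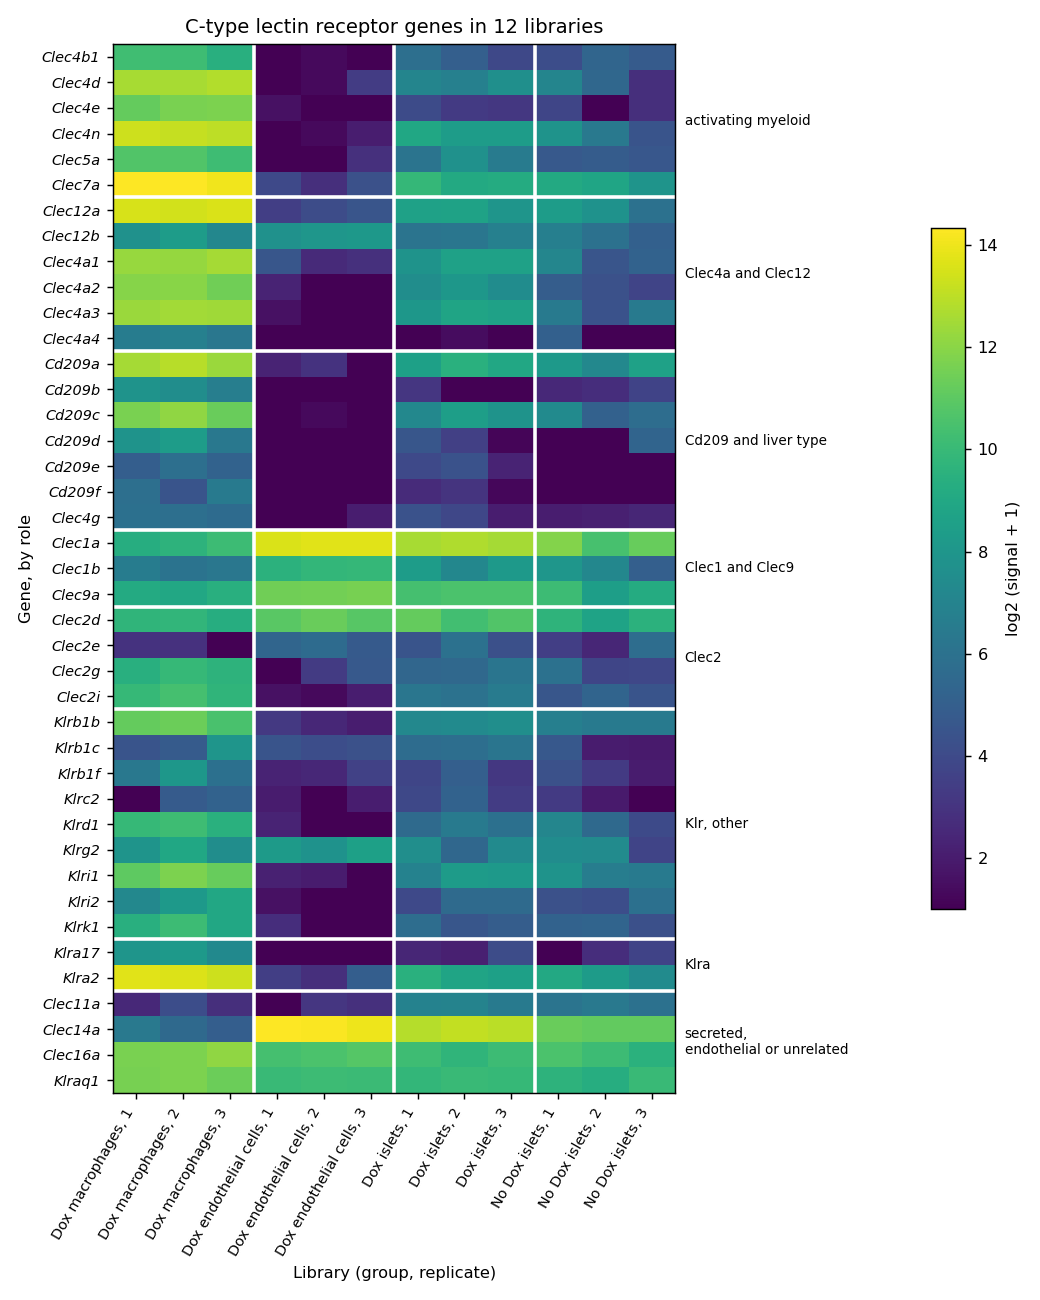
Level of 41 receptor genes (rows, grouped by role), those tested in at least 1 comparison, in the 12 libraries (columns). Colour is log2 of (signal + 1), and white lines separate groups of libraries and roles. Most Clec4, Cd209 and Klr genes are bright in the 3 macrophage libraries and dark in the 3 endothelial libraries, while Clec14a, Clec1a, Clec1b and Clec9a show the opposite pattern.

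The first comparison set Dox macrophages against Dox endothelial cells, and asks which cell of the VEGF-A-exposed islet carries each receptor. Of the 66 members, 39 passed the filter on low values (signal above 15.5 in at least 3 of the 6 libraries). In limma on log2 of (signal + 1), 30 were higher and 6 lower in macrophages at an adjusted p under 0.05. The background over 13726 tested genes was 27.7% higher and 31.5% lower. The median difference of the 39 was 6.83 on the log2 scale, against -0.10 over all tested genes. A member that passed the filter only by its level in 1 fraction had to differ, so this count is a description of where the receptors were found. In none of the 36 called members did the libraries of the fractions overlap (30 higher, where the background for no overlap was 30.7%, and 6 lower, background 35.8%). Where the endothelial values lay within a few units of the floor, the size of a log2 difference depends on the 1 that was added.

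The activating receptors of myeloid cells were high in macrophages, and all 6 tested genes of the 7 in this group were higher there. Clec7a (Dectin-1), the receptor for fungal beta-glucan, had a signal of 20238, 20731 and 16698 in the macrophage libraries, against 14.3, 6.02 and 18.8 in the endothelial libraries, a log2 difference of 10.54 (SE 0.36, limma adjusted p = 1.52e-07). Clec4n (Dectin-2), which binds fungal mannans and pairs with Fcer1g, had 10297, 9208 and 8121 in macrophages and 1, 1.51 and 3.13 in endothelial cells (log2 difference 11.71, SE 0.33, limma adjusted p = 7.32e-08), the largest difference of any member. All 3 macrophage libraries of each gene lay far above all 3 endothelial libraries.

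Clec4e (Mincle) and Clec4d (MCL), partners in recognising the mycobacterial cord factor, are neighbours on chromosome 6. Clec4d had a signal of 6087, 6291 and 7076 in macrophages and 1, 1.51 and 9.38 in endothelial cells (log2 difference 10.76, SE 0.59, limma adjusted p = 1.53e-06). Clec4e had 2344, 3230 and 3357 in macrophages and 2.05, 1 and 1 in endothelial cells (log2 difference 10.32, SE 0.34, limma adjusted p = 1.38e-07). Clec5a (MDL-1), which signals through the adaptor Tyrobp, had 1662, 1684 and 1180 in macrophages and 1, 1 and 6.25 in endothelial cells (log2 difference 8.92, SE 0.55, limma adjusted p = 3.11e-06). In each of these genes at least 1 endothelial library was at the floor. Clec4b1 (DCAR) reached 1199, 1165 and 672 in macrophages and at most 1.51 in endothelial cells, and Clec4b2, which did not pass the filter, had 9.24, 7.40 and 175 in macrophages and was at the floor in all endothelial libraries. Neutrophils and monocytes are known to carry Clec4d, Clec4e and Clec5a as well, and the part of the neutrophil markers in these values was not tested.

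The start regions of these genes were read from RefSeq (GRCm38.p6), where 55 of the 66 members had an entry spanning 250 bases before to 50 bases after the gene start. Since myeloid genes are often bound by the factor PU.1, the letters GAGGAA (the core of a PU box) were searched on both strands. They were in 31 of the 55 (56.4%), against 31.3% of 27025 genes. They were in 14 of the 25 such regions of macrophage-higher members (56%) and in 1 of the 5 of macrophage-lower members, that of Clec14a. The share in macrophage-higher members was no larger than that in all 55. Clec2h and Clec18a, at the floor in every library, held the word too. A longer search word of this kind, GAGGAAGT, which contains the shorter one, was tried first and was in 0 of the 55, against 3.69% of all genes, so the shorter word was chosen after that result. Near-identical Klra copies are among the members with the word, a match is a description of the letters, and binding was not measured. The regions of 3 activating receptors and of Clec14a are shown 5′ to 3′ on the gene's strand, with GAGGAA or its reverse complement in capitals. They are examples from genes high in macrophages and from the gene with the largest difference the other way. They lie at chr6:129472730-129473029 (Clec7a, minus strand), chr6:123289822-123290121 (Clec4e, minus strand), chr6:123261857-123262156 (Clec4d, plus strand) and chr12:58269209-58269508 (Clec14a, minus strand).
Clec7a: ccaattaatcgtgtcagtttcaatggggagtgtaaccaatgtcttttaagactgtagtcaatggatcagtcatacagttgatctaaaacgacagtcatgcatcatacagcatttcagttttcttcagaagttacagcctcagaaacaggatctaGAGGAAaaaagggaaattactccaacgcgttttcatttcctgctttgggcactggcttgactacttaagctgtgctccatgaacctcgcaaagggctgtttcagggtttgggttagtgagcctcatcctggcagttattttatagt
Clec4e: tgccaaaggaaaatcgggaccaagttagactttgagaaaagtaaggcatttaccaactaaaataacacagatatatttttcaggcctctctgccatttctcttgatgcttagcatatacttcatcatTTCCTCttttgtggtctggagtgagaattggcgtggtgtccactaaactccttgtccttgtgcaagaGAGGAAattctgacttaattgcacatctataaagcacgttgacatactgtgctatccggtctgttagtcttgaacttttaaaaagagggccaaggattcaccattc
Clec4d: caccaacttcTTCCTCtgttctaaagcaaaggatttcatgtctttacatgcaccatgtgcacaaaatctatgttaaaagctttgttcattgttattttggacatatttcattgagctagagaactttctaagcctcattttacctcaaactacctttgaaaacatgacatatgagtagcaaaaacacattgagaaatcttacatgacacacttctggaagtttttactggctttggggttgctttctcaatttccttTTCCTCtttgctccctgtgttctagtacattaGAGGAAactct
Clec14a: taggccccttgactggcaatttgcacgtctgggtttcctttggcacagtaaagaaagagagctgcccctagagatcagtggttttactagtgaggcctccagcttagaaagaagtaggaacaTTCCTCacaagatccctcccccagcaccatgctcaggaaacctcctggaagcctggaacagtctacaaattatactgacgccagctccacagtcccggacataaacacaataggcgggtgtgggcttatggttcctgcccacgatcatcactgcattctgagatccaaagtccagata
Clec7a and Clec14a held the word once, Clec4e on each strand, and Clec4d at 3 places, so the word was present on both sides of the comparison.

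Receptors with an inhibitory motif and their close relatives in the Clec4a and Clec12 genes were also higher in macrophages, 5 of the 6 members. Clec4a2 (DCIR), which carries an inhibitory motif, had a signal of 3934, 4014 and 2764 in macrophages and 4.10, 1 and 1 in endothelial cells (log2 difference 10.33, SE 0.44, limma adjusted p = 4.33e-07). Clec4a3 had 5152, 5731 and 5456 in macrophages and 2.05, 1 and 1 in endothelial cells (log2 difference 11.21, SE 0.30, limma adjusted p = 6.30e-08). Clec12a, an inhibitory receptor for uric acid crystals of dead cells, had 12040, 11116 and 12435 in macrophages and 10.25, 15.9 and 21.9 in endothelial cells (log2 difference 9.50, SE 0.27, limma adjusted p = 6.91e-08). These genes were at 2764 or more in every macrophage library and no higher than 21.9 in an endothelial library. Clec4a1 had 4879 to 5924 in macrophages and 4.92 to 22.5 in endothelial cells, and Clec4a4 (DCIR2) had 76.7 to 113 in macrophages with all endothelial libraries at the floor. Clec12b, an inhibitory receptor related to Clec12a, overlapped between the fractions, with 211, 331 and 143 in macrophages and 213, 259 and 281 in endothelial cells (log2 difference -0.21, 95% interval -0.98 to 0.56, limma adjusted p = 0.617).

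The Cd209 genes, the mouse relatives of human DC-SIGN, and the liver endothelial receptor Clec4g were higher in macrophages in all 7 tested of the 9 genes in this group. Cd209a had a signal of 6000, 7590 and 5235 in macrophages and 4.10, 6.77 and 1 in endothelial cells (log2 difference 10.50, SE 0.49, limma adjusted p = 6.47e-07). Cd209c had 3259, 4532 and 2478 in macrophages and 1, 1.51 and 1 in endothelial cells (log2 difference 10.59, SE 0.35, limma adjusted p = 1.32e-07). Cd209b (SIGNR1), known from marginal zone macrophages of the spleen, was lower in level at 105 to 232 in macrophages, and Cd209d (SIGNR3) at 81.1 to 334, with all 3 endothelial libraries of both genes at the floor. Cd209e (31.1 to 57.8), Cd209f (20.8 to 85.7) and Cd209g (8.17 to 17.4, below the filter) were lower still in macrophages and at the floor in every endothelial library. Clec4g (LSECtin), known from liver sinusoidal endothelium, had 50.1 to 59.0 in macrophages and 1 to 3.13 in islet endothelial cells (log2 difference 4.48, SE 0.47, limma adjusted p = 6.71e-05). Its exons overlap those of a gene annotated on the other strand, and whether counting used strand is not known here.

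**Figure D2:**
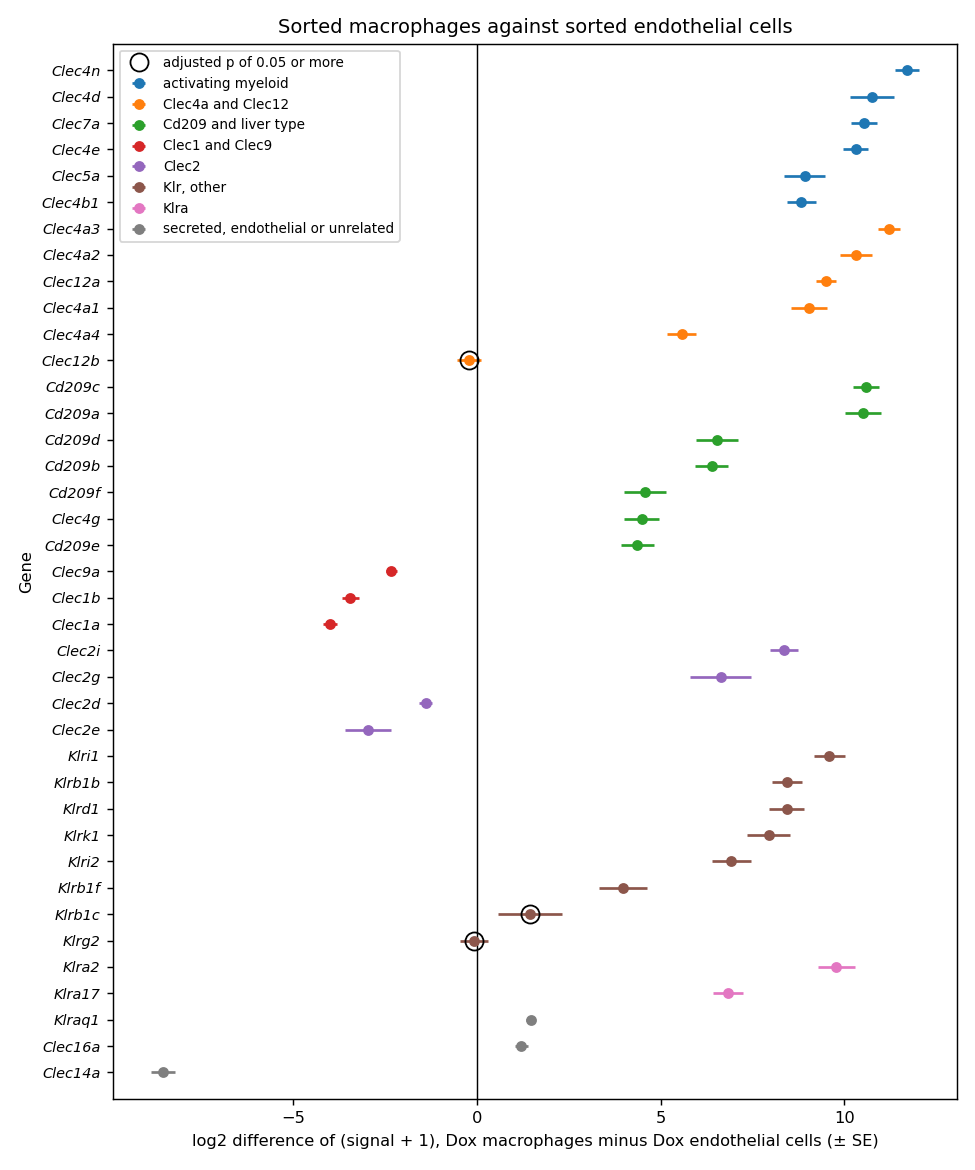
Difference between Dox macrophages and Dox endothelial cells for the 39 tested receptor genes, on the log2 scale of (signal + 1), with standard errors of the limma fit as bars and colour by role. Positive values are higher in macrophages, and the 3 circled genes (Clec12b, Klrb1c, Klrg2) did not pass an adjusted p of 0.05.

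Several genes named for NK cell receptors were abundant in the CD11b+ fraction. Of the 16 Klr genes outside the Klra family, 8 were tested and 6 were higher in macrophages, and of the 11 Klra genes 2 were tested and both were higher. Klra2 (Ly49B), a Ly49 receptor known from myeloid cells, had a signal of 13669, 12588 and 10326 in macrophages and 10.25, 6.02 and 31.3 in endothelial cells (log2 difference 9.79, SE 0.50, limma adjusted p = 1.09e-06). Klra17 (Ly49Q), an inhibitory receptor of plasmacytoid dendritic and myeloid cells, had 251, 289 and 160 in macrophages with all endothelial libraries at the floor. The other Klra genes never exceeded 16.5 in a library, and since they are near-identical copies, reads could be split or lost among them in counting.

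Klri1, whose product pairs with Klre1 on NK cells, had a signal of 2103, 3353 and 2431 in macrophages and 3.61, 3.01 and 1 in endothelial cells (log2 difference 9.60, SE 0.41, limma adjusted p = 4.41e-07). Klre1 itself was at 7.69 to 14.8 in macrophages and did not pass the filter. Klrb1b, the inhibitory receptor for Clec2d, had 2298, 2610 and 1449 in macrophages and 8.20, 4.52 and 3.13 in endothelial cells (log2 difference 8.44, SE 0.41, limma adjusted p = 7.62e-07). Klrd1 (CD94), a partner of the Klrc receptors, had 985, 1187 and 718 in macrophages and 4.10, 1 and 1 in endothelial cells (log2 difference 8.43, SE 0.48, limma adjusted p = 1.94e-06). Its partners Klrc1, Klrc2 and Klrc3 were at 35.0 or less in every macrophage library. Klrk1 (NKG2D), the receptor for stress ligands of the Raet1 and H60 families, had 683, 1126 and 509 in macrophages and 5.59, 1 and 1 in endothelial cells (log2 difference 7.94, SE 0.58, limma adjusted p = 8.13e-06). The 3 macrophage libraries of each called gene lay above the endothelial ones, and so did those of Klri2 (148 to 518, against 2.05 or less) and Klrb1f (59.85 to 270, against 10.9 or less). Klrb1, Klrb1a and Klrb1-ps1 never exceeded 9.63 in a library and were not tested. Klrg1, a receptor for cadherins on NK and T cells, was at 12.1 or less in all macrophage libraries and at the floor in all endothelial libraries, and did not pass the filter.

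Klrb1c (NK1.1), the classical NK cell marker, was highest in the library with the most NK marker signal. It had a signal of 21.1, 27.7 and 250 in macrophages and 21.3, 17.1 and 18.8 in endothelial cells (log2 difference 1.44, SE 0.87, limma adjusted p = 0.191). All 8 NK cell markers were likewise highest in macrophage replicate 3, with the NK receptor Ncr1 at 18.7, 38.5 and 212. Klrd1, Klrk1, Klrb1b and Klra2 had their lowest macrophage value in that same library, and all 4 were still called without it. Klri2, Klrc2, Klrc3, Klre1 and Klrg1, among others, had their highest macrophage value there. Since the endothelial values were low, a call without that library does not tell which cells carried a gene. The part of NK cells in these values was not tested. Klrg2, a little-studied member, had 237, 491 and 187 in macrophages and 306, 218 and 383 in endothelial cells (log2 difference -0.08, 95% interval -0.98 to 0.83, limma adjusted p = 0.881).

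The Clec2 genes split between the fractions, with 2 of the 4 tested higher and 2 lower in macrophages. Clec2d (Clr-b), the ligand of Klrb1b, had a signal of 856, 885 and 637 in macrophages and 1924, 2494 and 1843 in endothelial cells (log2 difference -1.40, SE 0.18, limma adjusted p = 2.32e-04). Clec2i (Clr-g), a ligand of Klrb1f, had 984, 1348 and 846 in macrophages and at most 3.13 in endothelial cells (log2 difference 8.36, SE 0.38, limma adjusted p = 5.45e-07). Clec2d was thus lower where its receptor Klrb1b was higher, while Clec2i and Klrb1f were both higher in macrophages. Clec2g had 683 to 973 in macrophages and 1 to 25.1 in endothelial cells, and it overlaps a pseudogene of the same family on the same strand. Clec2e was low in both fractions, at 6.66, 6.60 and 1 in macrophages and 39.4, 49.3 and 26.2 in endothelial cells (log2 difference -2.96, SE 0.63, limma adjusted p = 0.00404). Clec2j and Clec2l stayed at 8.18 or less in both fractions.

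The members higher in endothelial cells were led by Clec14a, an endothelial surface protein that binds the matrix protein Mmrn2. It had a signal of 81.8, 46.8 and 30.2 in macrophages and 20095, 19545 and 16670 in endothelial cells (log2 difference -8.55, SE 0.32, limma adjusted p = 2.27e-07). Mmrn2 stood with it, at 80.5, 53.6 and 84.6 in macrophages and 11578, 11101 and 9727 in endothelial cells (log2 difference -7.22, SE 0.20, limma adjusted p = 6.27e-08). Both genes were below 100 in every macrophage library. Clec1a, a receptor for fungal melanin, had 645, 784 and 1128 in macrophages and 12424, 13895 and 13820 in endothelial cells (log2 difference -4.01, SE 0.19, limma adjusted p = 7.56e-07). Clec1b (CLEC-2), the podoplanin receptor of platelets, had 94.9, 67.3 and 76.1 in macrophages and 771, 921 and 934 in endothelial cells (log2 difference -3.45, SE 0.23, limma adjusted p = 4.73e-06). The platelet markers summed over 7 genes to 3106 to 4194 in macrophages and 208 to 283 in endothelial cells. The macrophage sums were mostly Pf4 (3141, 2570 and 1890) and Gp9 (802, 714 and 1074). Of the 5 tested, 2 were higher in macrophages, 0 lower and 3 without a call, and Treml1 was at the floor in all endothelial libraries. The part of platelets in the Clec1b values was not tested. Podoplanin (Pdpn) was at 6.16 or less in every library of both fractions.

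Clec9a (DNGR-1), the receptor by which dendritic cells sense actin of dead cells, was lower in macrophages too. It had a signal of 562, 507 and 681 in macrophages and 2767, 2940 and 3070 in endothelial cells (log2 difference -2.33, SE 0.14, limma adjusted p = 2.61e-06). The dendritic cell markers were higher in macrophages in 7 of 8 genes, with the dendritic growth factor receptor Flt3 at 1482 to 1946 in macrophages and 3.01 to 3.94 in endothelial cells. The exception was Zbtb46, at 1356 to 2000 in macrophages and 6779 to 7496 in endothelial cells. On build mm9, Clec9a (chr6:129358880-129374780, plus strand) lies within the span of Clec1a (chr6:129339308-129402018, minus strand), with 9 bases between their nearest exons, and it shares 184 exon bases with Clec1b (chr6:129347315-129359353, plus strand). Clec1b and Clec9a are on the same strand, so reads in their shared bases may not be told apart even where strand is used. Clec1a, on the other strand, shares no exon base with either gene, and its nearest exon is 6197 bases from those of Clec1b. Without knowledge of the use of strand, it is not known whether reads of Clec1a were counted for these neighbours. The ratio of Clec9a to Clec1a signal was 0.603 to 0.871 in macrophages, 0.212 to 0.223 in endothelial cells, 0.219 to 0.256 in Dox islets and 0.244 to 0.302 in No Dox islets. The endothelial and islet ratios were below every macrophage ratio.

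**Figure D3:**
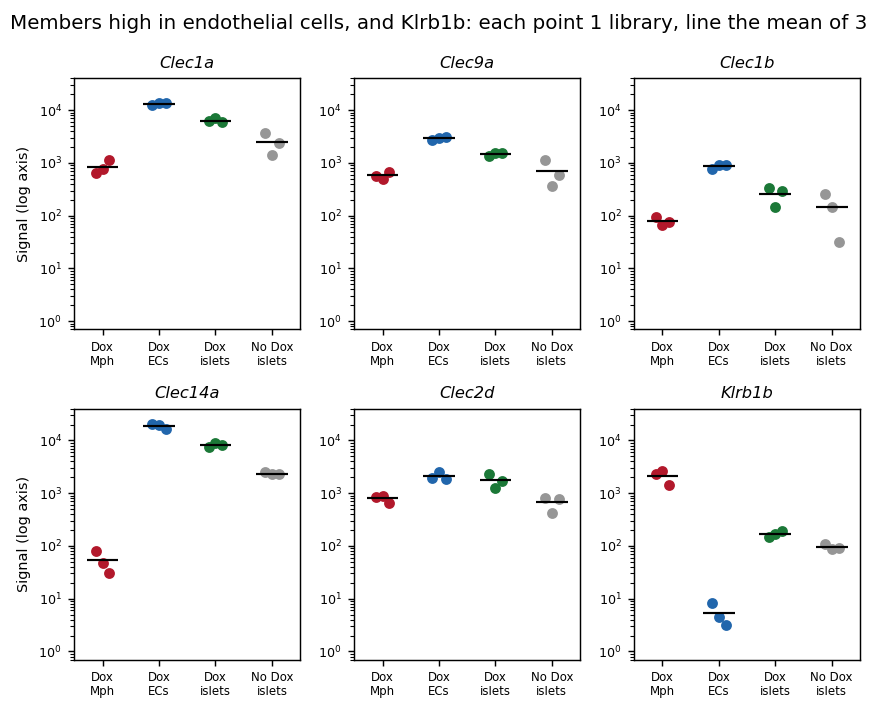
Signal (log axis) of the 5 members with the highest endothelial levels that were lower in macrophages, and of Klrb1b, receptor of the Clec2d product, in Dox macrophages (Mph), Dox endothelial cells (ECs), Dox islets and No Dox islets. Each point is 1 library and each line the mean of 3; Clec14a spans 30.2 in a macrophage library to 20095 in an endothelial library, and Klrb1b has the opposite order in the fractions.

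The members that are no receptors or are secreted showed small differences or low levels. Clec16a had a signal of 3220, 3298 and 4491 in macrophages and 1377, 1506 and 1836 in endothelial cells (log2 difference 1.21, SE 0.17, limma adjusted p = 3.51e-04), and Klraq1 differed by 1.46 (SE 0.13, limma adjusted p = 2.16e-05). Clec11a, a secreted growth factor for bone and blood progenitors, had 4.83 to 16.5 in macrophages and 1 to 7.53 in endothelial cells and did not pass the filter. Clec3b (tetranectin), a secreted plasminogen-binding protein, was at 5.50 or less in all 12 libraries.

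On chromosome 6 the members lie in gene complexes, and neighbours did not always share a fraction. In the complex from Clec4a1 to Clec4e (chr6:122871866-123239888 on mm9, 368 kb) 8 of 9 members were higher in macrophages, and the other one, Clec4b2, was not tested. The stretch of the NK gene complex from Klrb1a to Klra1 spans 1778 kb. Of its 36 members 11 were higher, 5 lower, 2 tested without a call and 18 not tested. Inside this stretch lie the 130 kb from Clec12a to Clec7a. Clec12a and Clec7a, higher in macrophages, lie there on either side of Clec12b, with no call, and Clec1a, Clec1b and Clec9a, lower in macrophages. Klra2 (chr6:131169241-131197380), higher in macrophages, lies past Klra1 and is not in these counts.

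**Figure D4:**
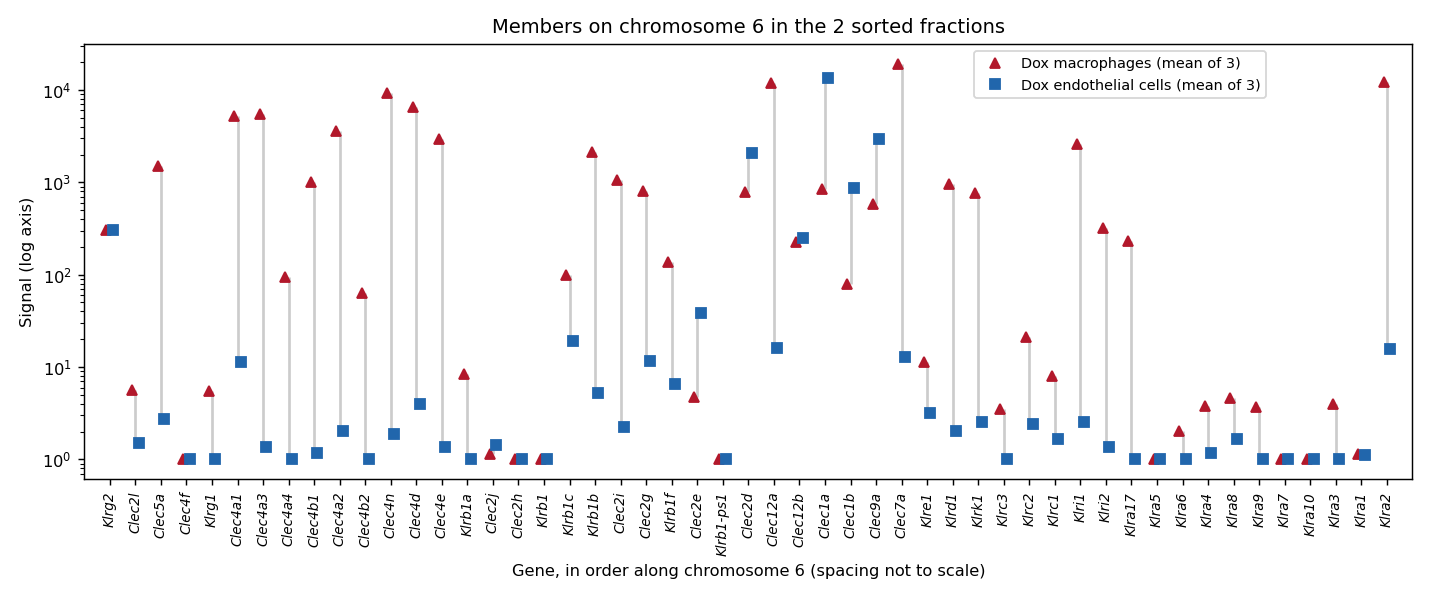
Mean signal (log axis) of the chromosome 6 members in Dox macrophages (triangles) and Dox endothelial cells (squares), in gene order, with a grey line joining the 2 values of a gene. The members of the Clec4a1 to Clec4e block lie on the macrophage side, Clec4a4 and Clec4b2 at low values, while Clec2d, Clec2e, Clec1a, Clec1b and Clec9a lie on the endothelial side.

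Genes that carry the receptors' signals were mostly higher in macrophages, 17 of 18, with 0 lower. Tyrobp, the adaptor of Clec5a and of activating Klr receptors, had a signal of 10735, 8843 and 6618 in macrophages and 2.05, 1 and 1 in endothelial cells (log2 difference 11.86, SE 0.32, limma adjusted p = 6.27e-08). The phosphatase Ptpn6 was higher by 6.94 (SE 0.41, limma adjusted p = 2.31e-06). The phosphatase Ptpn11 was the one without a call, at 2123 to 2817 in macrophages and 2885 to 3289 in endothelial cells (log2 difference -0.31, limma adjusted p = 0.0676). Of 13 ligand genes outside the family 9 were tested, and 5 were higher and 1, Mmrn2, lower in macrophages. H60b, a ligand of Klrk1, was higher by 6.01 (SE 0.22, limma adjusted p = 1.94e-07), and Cdh1, a ligand of Klrg1, by 4.25 (SE 0.46, limma adjusted p = 8.42e-05). Cdh1, an epithelial cadherin, had a signal of 476, 721 and 278 in macrophages, 14.3, 27.1 and 31.2 in endothelial cells and 2239 to 2895 in Dox islets. The beta cell markers were also higher in macrophages than in endothelial cells, with sums of 2927 to 6702 in macrophages and 512 to 643 in endothelial cells (6 of 7 tested higher, 0 lower, median 2.87, and no marker at the floor in all 3 libraries of either fraction), and their part in the Cdh1 difference was not tested. Of 22 C-type lectin-like genes with other symbols 18 were tested, with 9 higher and 7 lower in macrophages. The mannose receptor Mrc1 (10.36, SE 0.52, limma adjusted p = 9.98e-07) and the endothelial thrombomodulin gene Thbd (-4.38, SE 0.24, limma adjusted p = 1.73e-06) stood at the ends of that list.

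Against whole Dox islets, Dox macrophages had more of the myeloid receptors and less of the endothelial ones: of 41 members tested 31 were higher and 7 lower, where the background over 14479 genes was 21.3% higher and 31.4% lower. The median difference of the 41 was 3.61 on the log2 scale, against -0.20 over all tested genes, and none of the 38 called members overlapped between groups (background 25.0% higher and 36.0% lower). Some members, such as Cd209b, Cd209f and Clec4a4, passed the filter by their macrophage values alone and had to differ, so the counts and the median describe where the receptors were found. This comparison shares the macrophage libraries with the one above, so its calls are not independent of those. Clec4e differed most: 2344, 3230 and 3357 in macrophages and 15.8, 8.80 and 8.12 in Dox islets (257-fold as a ratio of signal + 1, log2 difference 8.00, SE 0.41, limma adjusted p = 1.25e-06). For its partner Clec4d the Dox islet values were 133, 112 and 198 (log2 difference 5.49, SE 0.26, limma adjusted p = 9.68e-07), and for Clec7a 937, 556 and 591 (log2 difference 4.82, SE 0.24, limma adjusted p = 1.09e-06). In signal Clec4e was below 16 in every Dox islet library, while Clec4d was above 100 in each. Cd209b (5.69), Clec4a4 (5.41) and Klra17 (4.93) also ranked high, on islet values of 16.2 or less, and Clec12a (5.11), Klra2 (4.61) and Clec4n (4.61) followed, all with limma adjusted p of 2.00e-04 or less. Clec4b1 was 32.0-fold higher (limma adjusted p = 6.89e-05). The other receptors named above were higher as well, namely Clec4a2 by 4.09, Klrk1 by 4.43, Klrd1 by 3.88, Clec5a by 3.74 and Cd209a by 3.59 on the log2 scale, and so was Clec16a, which is no receptor, by 1.80 (limma adjusted p 1.36e-04 or less).

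The 7 members lower in macrophages than in Dox islets included the 6 that were lower than in endothelial cells, and Clec11a. Clec14a differed by -7.34 (SE 0.36, limma adjusted p = 1.03e-06), Clec1a by -2.93 (SE 0.24, limma adjusted p = 1.18e-05). Clec9a differed by -1.35 (SE 0.22, limma adjusted p = 7.32e-04) and Clec2d by -1.12 (SE 0.27, limma adjusted p = 0.00669). Clec11a had a signal of 4.83, 16.5 and 6.05 in macrophages and 119, 124 and 89.2 in Dox islets (log2 difference -3.63, SE 0.60, limma adjusted p = 7.94e-04). Clec1b (-1.59, SE 0.46, limma adjusted p = 0.0171) and Clec2e (-2.61, SE 0.77, limma adjusted p = 0.0182) were called with less margin. Clec1b lost its call without macrophage replicate 2, without Dox islets replicate 3 and under quantile normalization (adjusted p up to 0.0745). Clec2e lost it without Dox islets replicate 2, with no filter and under quantile normalization (adjusted p up to 0.498). Klrb1c (log2 difference -0.15, 95% interval -2.14 to 1.83, limma adjusted p = 0.897), Klrc2 and Klrg2 had no call. Of the 18 signalling genes 16 were higher and Ptpn11 was lower (log2 difference -0.88, SE 0.23, limma adjusted p = 0.0105), with Tyrobp (5.43, SE 0.47, limma adjusted p = 1.68e-05) the highest. Of the 9 tested ligand genes 4 were higher and 4 lower, and of 19 tested lectin-like genes outside the symbols 9 were higher and 9 lower.

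Dox endothelial cells against whole Dox islets had 29 members tested, 5 higher and 19 lower, where the background over 14218 genes was 11.5% higher and 21.6% lower. The median difference of the 29 was -4.47 on the log2 scale, against 0.00 over all tested genes. Many of the lower members, such as Clec4a3, Clec4n and Klrk1, passed the filter by their Dox islet values alone and had to differ, so these figures too are a description. Clec1b was higher, with a signal of 771, 921 and 934 in endothelial cells and 328, 144 and 291 in Dox islets (log2 difference 1.86, SE 0.33, limma adjusted p = 0.00268). Clec12b followed, with 213, 259 and 281 in endothelial cells and 68.1, 75.0 and 112 in Dox islets (log2 difference 1.57, SE 0.33, limma adjusted p = 0.00623). Clec14a was higher by 1.21 (SE 0.17, limma adjusted p = 7.44e-04), Clec1a by 1.08 (SE 0.16, limma adjusted p = 0.00103) and Clec9a by 0.99 (SE 0.16, limma adjusted p = 0.00136). Clec14a's ligand Mmrn2 was higher by 1.29 (SE 0.16, limma adjusted p = 3.69e-04). All 10 endothelial markers were higher in the same comparison, by a median of 1.42, so the endothelial members moved with the endothelial marker list, whose part in the result was not tested. Clec12b was the one of these 5 members that did not differ at the threshold between macrophages and endothelial cells. It was also higher in macrophages than in Dox islets (log2 difference 1.36, SE 0.47, limma adjusted p = 0.0356).

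Of the 19 members lower in endothelial cells than in Dox islets, Clec4a3 had the largest difference. Its signal was 2.05, 1 and 1 in endothelial cells and 264, 447 and 389 in Dox islets (log2 difference -7.29, SE 0.44, limma adjusted p = 1.18e-05). Clec4n (-7.10), Cd209a (-6.90), Cd209c (-6.75), Clec4a2 (-6.24), Klri1 (-6.06), Clec7a (-5.72), Clec4d (-5.27), Klra2 (-5.19) and Clec5a (-5.18) followed, each with a limma adjusted p of 5.38e-04 or less. Their libraries did not overlap (background 27.0% lower and 21.2% higher). These are all receptors that were higher in macrophages than in endothelial cells. Clec11a was lower too (-4.47, SE 0.62, limma adjusted p = 6.97e-04), although it was low in both fractions. Clec12a (-4.40), Klrd1 (-4.55) and Klrk1 (-3.51) were also lower, and Klrk1 lost its call under quantile normalization (adjusted p = 0.136). Klrb1c was lower in endothelial cells (-1.59, SE 0.40, limma adjusted p = 0.0153), and the call was lost under 4 alternatives, with adjusted p up to 0.835, among them without endothelial replicate 1 and without endothelial replicate 2. Clec2d (0.27, 95% interval -0.29 to 0.83, limma adjusted p = 0.425) and Clec16a (0.59, limma adjusted p = 0.0559) had no call, but Clec16a was called under quantile normalization and without Dox islets replicate 1 (adjusted p down to 0.0142). Among 16 tested signalling genes 3 were higher and 7 lower, with Tyrobp the lowest (-6.43, SE 0.61, limma adjusted p = 8.93e-05). Of 10 tested ligand genes 1 was higher and 4 lower, and of 15 tested lectin-like genes outside the symbols 2 were higher and 9 lower.

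Whole islets after 1 week of Dox against untreated islets test whether receptor transcripts change in the tissue in which VEGF-A is switched on. Of 31 members tested 4 were higher in Dox islets and 0 lower, where the background over 14443 genes was 4.33% higher and 1.41% lower. At an unadjusted limma p under 0.05 there were 12 higher and 0 lower members. Of the 14443 genes, 3000 had such a p, 1931 of them higher. The 4 were Clec4a1, Clec4a2 and Clec4a3, which lie in the same complex on chromosome 6, and the endothelial Clec14a. Between Clec4a3 and Clec4a2 lie Clec4a4, not tested here, and Clec4b1, without a call (log2 difference 0.17, limma adjusted p = 0.937). Of the 31, 30 had a difference above 0, against 8139 of the 14443 genes. The median of the 31 was 1.04 on the log2 scale against 0.11 over all genes tested. No overlap between groups was seen in 14, all higher in Dox islets (background 15.7% higher and 9.64% lower). In whole islets, more cells of a type and more RNA per cell cannot be told apart. The sorted fractions have no counterpart without Dox, so the change within a cell type was not measured.

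Clec4a2, the inhibitory receptor, had a signal of 182, 267 and 179 in Dox islets and 29.5, 18.8 and 12.1 in No Dox islets (10.4-fold, log2 difference 3.38, SE 0.57, limma adjusted p = 0.0144). Clec4a1 had 228, 395 and 403 in Dox islets and 137, 21.5 and 35.9 in No Dox islets (log2 difference 2.77, SE 0.68, limma adjusted p = 0.0442). Clec4a3 had 264, 447 and 389 in Dox islets and 86.2, 19.9 and 86.4 in No Dox islets (log2 difference 2.73, SE 0.62, limma adjusted p = 0.0365). Every Dox library was above every No Dox library in these genes, and the No Dox libraries of Clec4a1 and Clec4a3 were spread widely. Clec14a had 7420, 8810 and 8059 in Dox islets and 2469, 2282 and 2272 in No Dox islets (3.45-fold, log2 difference 1.79, SE 0.27, limma adjusted p = 0.0124), and its libraries were close within each group. Its ligand Mmrn2 had 4732, 4291 and 4173 in Dox islets and 1577, 1608 and 1318 in No Dox islets (log2 difference 1.55, SE 0.27, limma adjusted p = 0.0151).

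These 4 calls rested on few libraries. Without Dox islets replicate 2, and likewise without Dox islets replicate 3, 0 members were called (adjusted p of Clec14a 0.0957 and 0.0590, of Clec4a2 0.107 and 0.0672). Without both libraries whose values followed GC content most, Clec14a remained (log2 difference 1.83, adjusted p = 0.0410), while Clec4a2 (3.46, adjusted p = 0.0530), Clec4a3 (2.26, adjusted p = 0.0507) and Clec4a1 (2.49, adjusted p = 0.105) did not. With a term for the number series of the libraries in the table's header, Clec4a2 (adjusted p = 0.0279) and Clec14a (0.0222) were called and Clec4a1 (0.0587) and Clec4a3 (0.0562) were not.

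Several other members had higher values in Dox islets without passing the threshold. Clec1a had a signal of 6130, 6989 and 5951 in Dox islets and 3752, 1403 and 2411 in No Dox islets (log2 difference 1.44, SE 0.37, limma adjusted p = 0.0512). Clec9a had 1370, 1530 and 1521 in Dox islets and 1133, 359 and 587 in No Dox islets (1.24, SE 0.41, limma adjusted p = 0.113). Clec2d had 2305, 1279 and 1698 in Dox islets and 815, 422 and 760 in No Dox islets (1.42, SE 0.37, limma adjusted p = 0.0545). The groups of these 3 genes did not overlap, and the intervals of their differences ran from 0.62 to 2.27, from 0.32 to 2.17 and from 0.60 to 2.24 on the log2 scale. Klrb1c had 51.2, 55.4 and 72.95 in Dox islets and 24.6, 3.01 and 2.93 in No Dox islets (3.03, SE 0.89, limma adjusted p = 0.0800). Clec5a had 68.6, 211 and 93.7 in Dox islets and 25.7, 28.4 and 24.1 in No Dox islets (2.05, SE 0.62, limma adjusted p = 0.0842). Clec4n had 491, 327 and 330 in Dox islets and 227, 82.1 and 20.95 in No Dox islets (2.33, SE 0.75, limma adjusted p = 0.102). In all 3 of these genes the Dox libraries lay above the No Dox libraries. With all 12 libraries in the fit these 6 genes were called (adjusted p 0.0428 or less). Clec1a was called under 4 other alternatives, a stricter filter, an added constant of 10, quantile normalization and without No Dox islets replicate 1 (adjusted p down to 0.0106 over all 5). Clec9a and Klrb1c were also called without No Dox islets replicate 1, and Clec4n with the replicate block.

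Clec7a, Clec12a, Cd209a and Klra2, all abundant in macrophages, had no call and differences of 1.04 or less on the log2 scale. Clec7a had a signal of 937, 556 and 591 in Dox islets and 554, 454 and 236.5 in No Dox islets (log2 difference 0.79, 95% interval -0.14 to 1.72, limma adjusted p = 0.326). Clec12a had 393, 411 and 249 in Dox islets and 330, 219 and 62.85 in No Dox islets (1.04, 95% interval -0.30 to 2.39, limma adjusted p = 0.382). Cd209a had 376, 709 and 504 in Dox islets and 285, 151 and 401 in No Dox islets (0.98, 95% interval -0.03 to 2.00, limma adjusted p = 0.256). Klra2 differed by 0.70 (95% interval -0.36 to 1.76, limma adjusted p = 0.477). In Clec7a the lowest Dox library was just above the highest No Dox library, and in Clec12a and Cd209a the groups overlapped. Clec4d differed by 2.07 (95% interval -0.03 to 4.18, limma adjusted p = 0.248), and Clec4e, at 8.12 to 15.8 in Dox islets and 1 to 12.6 in No Dox islets, was not tested. Clec1b (1.17), Klrd1 (0.45) and Klrk1 (0.18) had limma adjusted p of 0.431, 0.835 and 0.931, and Clec11a (0.62) had 0.561. Clec16a was the member below 0, at 1172, 857 and 1115 in Dox islets and 1489, 1150 and 741 in No Dox islets (-0.06, 95% interval -0.83 to 0.71, limma adjusted p = 0.955).

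**Figure D5:**
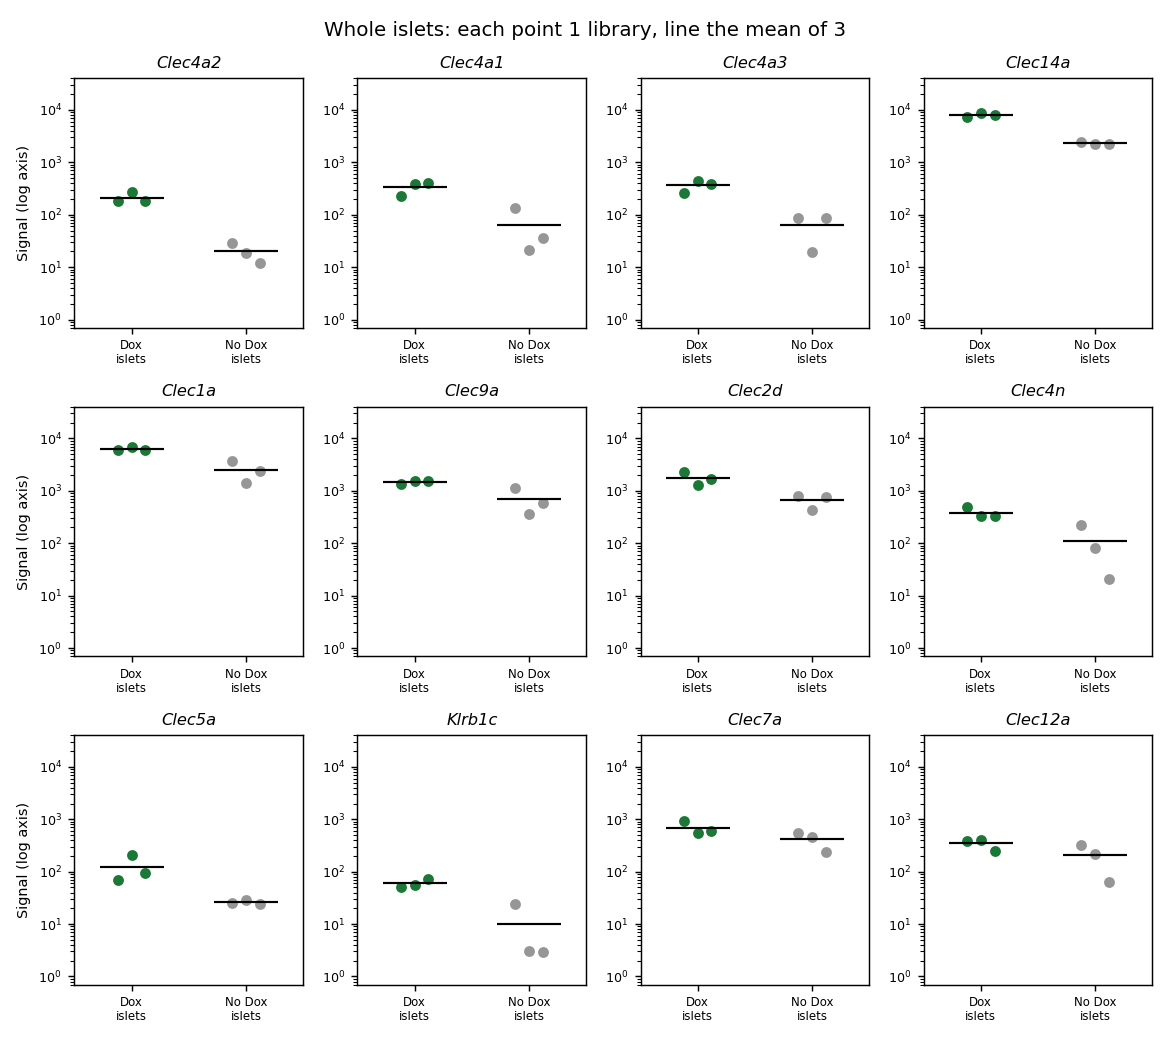
Signal (log axis) of 12 receptor genes in Dox islets and No Dox islets, each point 1 library and each line the mean of 3. The top row holds the 4 members that passed the threshold, in which all Dox points lie above all No Dox points. The lower rows hold 8 that did not pass, in most of which the groups still do not overlap.

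By side of the fraction comparison, 21 of the 30 members higher in macrophages were tested in islets, with 20 above 0, 3 called and a median of 0.98. All 6 members higher in endothelial cells were tested, with 6 above 0, 1 called and a median of 1.33. The 2 comparisons share no library, and the difference between these medians was not tested. Summed over the 30, the signal was 6499 to 7026 in Dox islets and 3329 to 5499 in No Dox islets. Over the 6 it was 17539 to 18813 in Dox islets and 4615 to 8437 in No Dox islets. The 30 include Clec16a and Klraq1, which are no lectins and differed little (log2 difference -0.06 and 0.27). Their mean signals were 1048 and 987 in Dox islets and 1126 and 836 in No Dox islets. They thus hold a large part of the No Dox sums and make the change in the 30 look smaller. Markers moved alongside. The macrophage list summed to 15852 to 21675 in Dox islets and 4909 to 7225 in No Dox islets (5 of 10 higher, 0 lower, median 1.74), and the endothelial list summed to 89370 to 114675 in Dox islets and 35537 to 40403 in No Dox islets (6 of 10 higher, 0 lower, median 1.55). The beta cell list summed to 163431 to 224597 in Dox islets and 388350 to 682545 in No Dox islets (5 of 9 lower, 0 higher, median -1.71). The acinar list summed to 95915 to 287893 in Dox islets and 33436 to 104659 in No Dox islets (0 of 7 called, median 1.40). No marker of these 4 lists was at the floor in all 3 libraries of either islet group. The part of these cell lists in the receptor differences was not tested. Of 16 tested signalling genes 2 were higher and 0 lower, the kinase Lyn (1.64, SE 0.32, limma adjusted p = 0.0217) and the adaptor Fcer1g (1.47, SE 0.37, limma adjusted p = 0.0470). The Fcer1g call held under 4 of 16 alternatives (adjusted p up to 0.241), and of the single libraries it held only when Dox islets replicate 1 was left out. The Lyn call held under 11 of 16 and was lost without Dox islets replicate 2, without Dox islets replicate 3 and without No Dox islets replicate 1 (adjusted p up to 0.133). Of 9 tested ligand genes 1 was higher, Mmrn2, and 0 lower. Of 15 tested lectin-like genes outside the symbols 5 were higher and 0 lower, among them Cd248 (2.91, SE 0.73, limma adjusted p = 0.0482), known from pericytes. The Cd248 call held under 5 of 16 alternatives (adjusted p up to 0.275), and of the single libraries it held only when No Dox islets replicate 2 was left out. The others included the endothelial Cd93 (2.47, SE 0.46, limma adjusted p = 0.0185) and the macrophage receptor Mrc1 (2.27, SE 0.34, limma adjusted p = 0.0124). The calls of Mmrn2, Cd93 and Mrc1 held under 13 of 16 alternatives each and were lost without Dox islets replicate 2 and without Dox islets replicate 3 (adjusted p up to 0.205).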

How the data were processed

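RNA was measured in 12 libraries, 3 in each of 4 groups, as labelled. Per the labels' protocols, RNA was amplified with a NuGEN Ovation kit before library preparation. The authors deposited a normalized signal; the sources used here do not give the method, the counting program, the use of strand or the annotation. Per the submitters' processing notes, TopHat2 2.0 and mm9 were named. Low values are whole multiples of a library step (99.66 to 100% within 0.1 step), but only 41.7 to 63.8% are multiples of 50 steps, so whole reads were not recovered and no count model was used.

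For a symbol with several entries, the one with the highest mean was kept. Values were analysed as log2 of (signal + 1) with limma 3.58.1 in R 4.3.3, with a variance trend, in a linear model of the 6 libraries of each comparison. Genes had to exceed 15.5, the 40th percentile of all values, in at least 3 of the 6. P-values were adjusted by Benjamini-Hochberg over all tested genes, with a threshold of 0.05. The fit was tested on simulated data. Levels per kilobase use exon lengths of GENCODE M1. Named genes are the members called with no overlap of groups, up to 10 per direction by size, and members with an established role; Clec4b1, Clec4a4, the smaller Cd209 genes and others were added to account for all members. An example from the gene lists is not reported here. The members, lists and tests were chosen with earlier results of these data known. Deviations of same-numbered macrophage and endothelial libraries correlated at 0.23, 0.41 and 0.36. The labels do not say that the numbers pair libraries, and differently numbered libraries were not compared. The main fits were unpaired, and a replicate block left the 36 calls between the fractions as they were. The library number series term was added after the file was seen. Alternatives were the filter, the added constant, scaling, the libraries in the fit, the trend, the block and leaving libraries out.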

Additional observations from a re-analysis of the deposited data

How the results depend on the processing

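Calls between the sorted fractions and between each fraction and Dox islets kept their counts within 1.5 times under every alternative tried: 30 to 40 members for macrophages against endothelial cells, 32 to 38 for macrophages against Dox islets and 18 to 28 for endothelial cells against Dox islets. The islet count moved more. Of its 4 calls, 1 was left with no filter (Clec14a; 97 genes in all), 2 with no variance trend, 2 with the term for the library number series (added after seeing the data) and 1 without both No Dox islets replicate 2 and Dox islets replicate 1, while 12 were called with all 12 libraries in the fit, the 4 among them. Leaving out 1 library gave 0 to 6 calls, 0 without Dox islets replicate 2 (5 genes in the whole table) and 0 without Dox islets replicate 3 (87 genes). A stricter filter gave 5, an added constant of 10 gave 5, median-ratio scaling 4 and quantile normalization 3, of which 2 were shared; quantile normalization moved the median difference of all genes to -0.04, against 0.11. With the replicate block, 36 members were called in macrophages against endothelial cells and 38 in macrophages against Dox islets. It gave 25 in endothelial cells against Dox islets and 5 in Dox against No Dox islets. No call between the fractions changed. In the other comparisons the deviations of same-numbered libraries correlated at -0.54 to 0.29. Whether the numbers pair libraries was not tested.

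Among the members and list genes named, signs turned only where there was no call. Klrb1c in macrophages against Dox islets was 0.81 under quantile normalization, 0.45 with the library series term, and -1.26 to 0.50 when 1 library was left out (0.50 and 0.31 without macrophage replicate 1 and replicate 2). In Dox against No Dox islets, Clec16a was 0.08 and 0.17 without Dox islets replicate 2 and without No Dox islets replicate 1, Klrk1 was -0.16 and -0.15 without Dox islets replicate 1 and without No Dox islets replicate 3 (up to 0.44 when 1 library was left out), and Klrd1 was -0.33 without No Dox islets replicate 3 (up to 1.23). The causes were not tested. With 3 libraries a group and unknown read depth, the size of a difference with values near the floor was not resolved, even where it was called. Members below the filter were not tested in the main fits.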
